A study of Mus musculus with 5 samples.

Results

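The Pax, Six-family and Eya regulators described here are 9 genes taken by name from the 25873 named genes of the deposited table: Pax7, Pax3, Six2, Six4, Six5, Eya1, Eya2, Eya4 and Lbx1. All 9 were in the table. RNA was sequenced from sorted tdTomato-positive cells, the descendants of Pax7-expressing progenitors, in the limb muscle of C57BL/6J mouse fetuses at E16.5. The 2 Notch2 cKO libraries came from fetuses with Pax7-CreER, floxed Notch2 and Rosa-tdTomato, the 1 Notch1 cKO library from fetuses with Pax7-CreER, floxed Notch1 and Rosa-tdTomato, and the 2 WT libraries from fetuses with Pax7-CreER and Rosa-tdTomato alone. Oral tamoxifen (240 mg/kg on 2 days, starting at E12.5) went to the mothers of every group, so the controls carry both the recombinase and the drug. CreER is driven from Pax7, so cells could be marked only if Pax7 was active around the time of tamoxifen, and every Pax7 value below was measured in animals that carry the Pax7-CreER allele.

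Pax3 and Pax7 are paired-box transcription factors of muscle progenitors: Pax3 marks the cells that leave the somites for the limb, and Pax7 marks fetal progenitors and adult satellite cells. Six-family proteins are homeobox transcription factors that bind the MEF3 sequence in the regulatory regions of muscle genes such as Myog, and Eya proteins, which do not bind DNA themselves, are their co-activators. Lbx1 is a homeobox factor needed by the migrating precursors of limb muscle. As progenitors differentiate, Pax7 is switched off while Myog comes on, and Notch signalling is known to hold progenitors back from this step.

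Levels are given in RPKM, the authors' read counts scaled by gene length and library total, so levels of different genes are compared per length. The tags Em2, Em3, Em4 and Em8 tell libraries apart and come from the table's header. Library totals implied by the RPKM values were between 20740258 and 28827897 reads. On the same basis, the 9 genes had between 59 and 1466 reads in a library. All 8 progenitor markers and all 8 markers of differentiated muscle were detected in every library. Their summed levels were 560 to 828 and 3940 to 6730 RPKM. Markers of other cell types were detected too, so detection alone does not set the cell type. Erythroid markers summed to 312 to 1250 RPKM and interstitial fibroblast markers to 124 to 327 RPKM over the libraries. The targeted gene Notch1 stood at 2.33 RPKM in Notch1 cKO Em8, against 7.26 and 13.5 RPKM in WT (limma adjusted p = 0.0443). The level of Notch2 itself was 3.35 (Em3) and 2.03 RPKM (Em4) in Notch2 cKO, against 2.40 (Em2) and 4.17 RPKM (Em4) in WT (limma adjusted p = 0.905), so a gene-level value does not separate the libraries labelled Notch2 cKO from WT.

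All 9 regulators were expressed in every library, at low to middling levels. By mean over the 5 libraries, Pax7 (10.03 RPKM) and Six2 (9.97 RPKM) lay at the middle of the 11543 genes tested, which have a mean of at least 1 RPKM, with 50.3% and 50.1% of these genes below them. Pax3 (1.20 RPKM) and Six5 (1.43 RPKM) lay near the bottom, with 3.0% and 6.1% of genes below. In the Notch2 cKO libraries the order of mean levels was Eya2, Six2, Pax7, Lbx1, Eya4, Eya1, Six4, Six5 and Pax3, running from 9.15 to 1.28 RPKM, and neighbours separated beyond their 2 libraries only between Eya4 and Eya1 and between Six4 and Six5. In Notch1 cKO Em8 the order was Pax7, Six2, Eya2, Eya4, Eya1, Lbx1, Six4, Six5 and Pax3, from 13.4 to 1.58 RPKM. There the counting intervals (exact Poisson, 95%) kept Pax7 apart from Six2, Six2 apart from Eya2, and Lbx1 apart from Six4. In WT the order was Six2, Pax7, Eya2, Eya4, Eya1, Lbx1, Six4, Six5 and Pax3, from 12.1 to 0.939 RPKM. Neighbour by neighbour, the first 3 overlapped there, as did the next 4, though Six4 lay below both Eya4 and Eya1. Six4, Six5 and Pax3 were separate from each other. For Six5 and Pax3 the gap was only that between 1.09 RPKM in WT Em2 and 1.04 RPKM in WT Em4. The counting intervals of these 2 values overlapped (0.86 to 1.37 and 0.84 to 1.28 RPKM). Pax3 was lowest in every group. These orders depend on the gene lengths the authors used, which the RPKM steps imply. For Lbx1 that length was 864 bases, where its annotated exons (GENCODE M21) cover 2484. For Six4 it was 5572 against 10855 bases, and for Eya4 4099 against 9419 bases. For Six2 it was 2108 against 2119 bases.

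**Figure D1:**
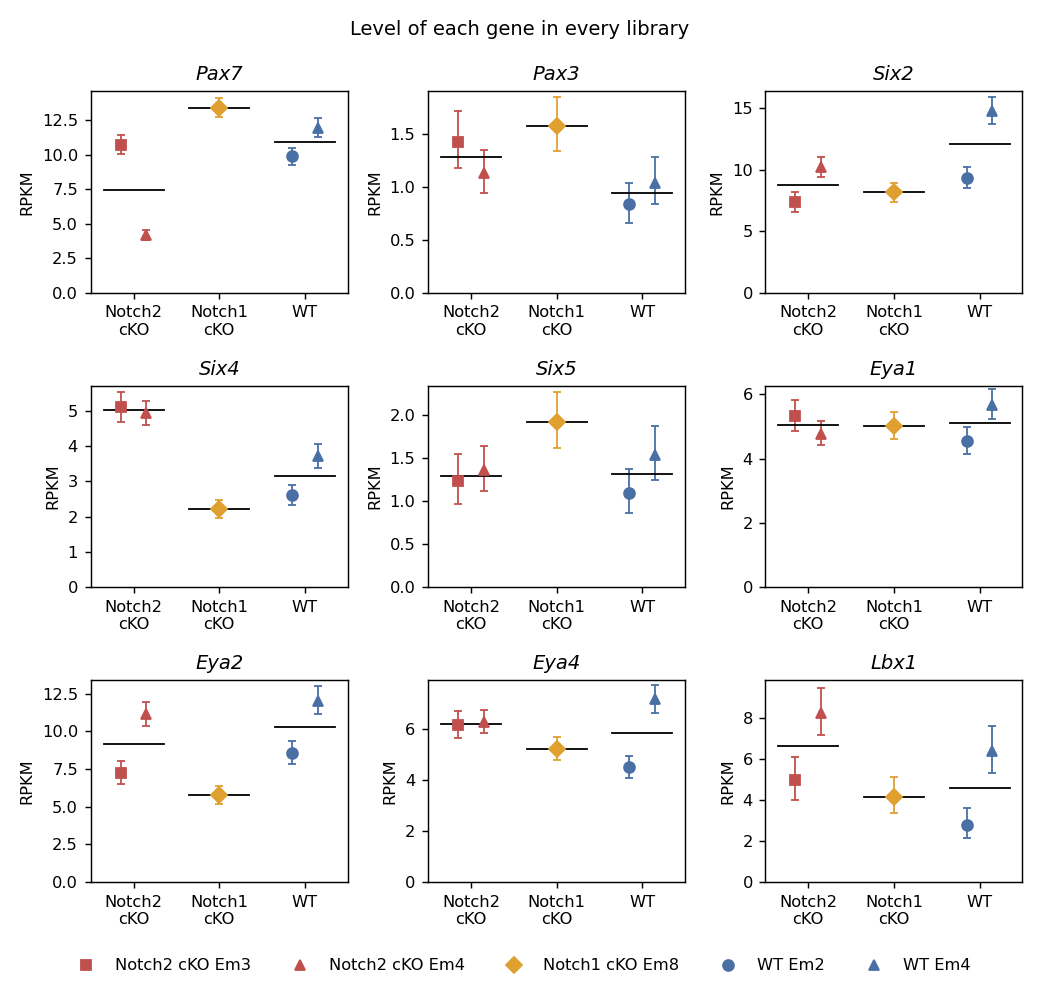
RPKM of each of the 9 genes (vertical axis, from 0, a scale of its own per gene) in the Notch2 cKO, Notch1 cKO and WT libraries. Points are libraries, vertical bars are exact Poisson 95% intervals for counting error, and horizontal lines are group means; Pax7 in Notch2 cKO Em4 stands at 4.15 RPKM, below the 9.90 to 13.42 RPKM of the other libraries.

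None of the 9 genes passed the test in any of the 3 comparisons. The test was limma on log2(RPKM + 1) over all 11543 genes, with Benjamini-Hochberg adjustment and a threshold of 0.05. In Notch2 cKO against WT it called 0.537% of genes, in Notch1 cKO against WT 0.0693% and in Notch2 cKO against Notch1 cKO 0.485%, so a set of 9 genes with no call lies close to that background. The smallest adjusted p among the 9 was 0.68, 1 and 0.495 in these comparisons. At an unadjusted p under 0.05 stood none of the 9 in either comparison with WT, where 7.63% (Notch2 cKO) and 1.85% (Notch1 cKO) of all genes did, and 2 of the 9 (Pax7 and Six4) in Notch2 cKO against Notch1 cKO, where 8.66% did. The labels do not say whether the libraries came from separate fetuses, and with groups of 2, 1 and 2 the spread was mostly pooled across genes, so the p-values describe these libraries. Fewer cells of a type and less RNA per cell cannot be told apart in any of these values.

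Pax7 (ENSMUSG00000028736.13, minus strand of GRCm38 chromosome 4, bases 139737062 to 139833528) was split within the Notch2 cKO group. It reached 10.74 RPKM in Notch2 cKO Em3, 4.15 in Notch2 cKO Em4, 13.42 in Notch1 cKO Em8, then 9.90 in WT Em2 and 11.96 RPKM in WT Em4. Notch2 cKO Em3 lay inside the WT range, Notch2 cKO Em4 below every other library, and Notch1 cKO Em8 above every other library. The log2 fold change was −0.61 in Notch2 cKO against WT (SE 0.32, 95% interval −1.25 to 0.02, limma adjusted p = 0.68) and 0.28 in Notch1 cKO against WT (SE 0.39, interval −0.50 to 1.05, adjusted p = 1). Between the knockouts it was −0.89 (SE 0.39, interval −1.67 to −0.12, unadjusted p = 0.0244, limma adjusted p = 0.504), but −0.30 without Notch2 cKO Em4 (unadjusted p = 0.536) and −1.49 without Notch2 cKO Em3.

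The Pax7 difference between Notch2 cKO and WT also rested on Notch2 cKO Em4. Without that library the log2 fold change against WT was −0.02, and without Notch2 cKO Em3 it was −1.21 (limma adjusted p = 0.301). On the log2(RPKM + 1) scale Notch2 cKO Em4 was 1.19 below Notch2 cKO Em3, a gap wider than that of 98.7% of the genes tested, whose median absolute gap was 0.26. With 511 reads in Em4 and 952 in Em3, the counting intervals of 3.79 to 4.52 and 10.07 to 11.44 RPKM lay far apart. The WT pair differed by 0.25, where the median absolute gap was 0.32.

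Of the other 7 progenitor markers, none was lowest in Notch2 cKO Em4. Summed over the 8 progenitor markers, which include Pax7, the level reached 678 RPKM in Notch2 cKO Em3, 825 in Notch2 cKO Em4, 644 in Notch1 cKO Em8, then 560 in WT Em2 and 828 RPKM in WT Em4. Des, Cdh15 and Myod1 were the largest parts of this sum in Notch2 cKO Em4, at 215, 196 and 188 RPKM. The sum mostly follows such abundant genes and does not measure the number of progenitors. The cell-surface receptor gene Vcam1 was at 56.5 RPKM in Notch2 cKO Em4 and 31.4 RPKM in Em3 of that group, and the cadherin gene Cdh15 at 196 RPKM in Em4 and 155 RPKM in Em3. Relative to Myog, the regulator of differentiating myoblasts, the ratio of Pax7 was 0.00649 and 0.00239 in Notch2 cKO, 0.0142 in Notch1 cKO Em8 and 0.0094 in each WT library. Notch2 cKO Em4 was also the library with the highest summed level of the 10 tendon and cartilage markers, 165 RPKM against 52.3 RPKM in Notch2 cKO Em3, 68.2 RPKM in Notch1 cKO Em8, and 47.6 and 67.5 RPKM in WT. The cartilage collagen gene Col2a1 made up 55.4 RPKM of it. The part of these other cells in the Pax7 value was not tested.

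**Figure D2:**
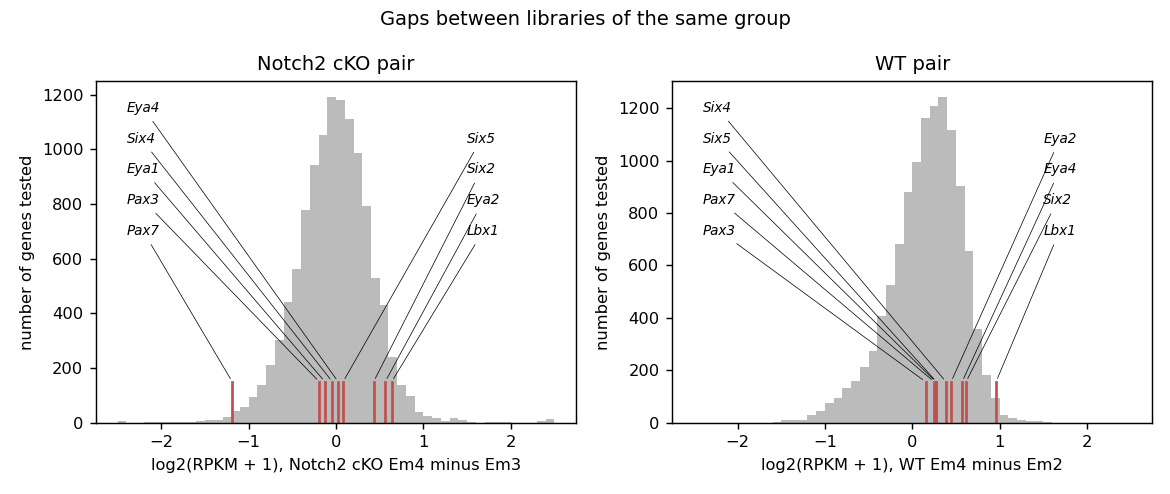
Histograms of the difference in log2(RPKM + 1) between libraries of the same group for the 11543 genes tested (vertical axis, number of genes), with values beyond 2.5 in either direction drawn in the end bins: Notch2 cKO Em4 minus Em3 on the left and WT Em4 minus Em2 on the right. Red lines mark the 9 genes; Pax7 lies at −1.19 in the Notch2 cKO pair and Lbx1 at 0.96 in the WT pair.

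Pax3 (ENSMUSG00000004872.15, minus strand of GRCm38 chromosome 1, bases 78101267 to 78197134) was the scarcest of the 9 and was lowest in WT. It reached 1.43 RPKM in Notch2 cKO Em3, 1.13 in Notch2 cKO Em4, 1.58 in Notch1 cKO Em8, then 0.84 in WT Em2 and 1.04 RPKM in WT Em4. The knockout libraries all lay above both WT libraries, with 79 to 156 reads per library over all 5. The WT mean of 0.939 RPKM is under the filter of 1 RPKM, so Pax3 was tested only because its knockout levels were higher. The counting interval of Notch2 cKO Em4, 0.94 to 1.35 RPKM, overlapped that of WT Em4, 0.84 to 1.28 RPKM. The log2 fold change was 0.23 in Notch2 cKO (SE 0.30, limma adjusted p = 0.876) and 0.41 in Notch1 cKO (SE 0.36, adjusted p = 1) against WT.

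As a share of the Pax3 and Pax7 sum, Pax3 made up 11.8% (Em3) and 21.4% (Em4) in Notch2 cKO, 10.5% in Notch1 cKO Em8, and 7.8% (Em2) and 8.0% (Em4) in WT. The high share in Notch2 cKO Em4 came with the low level of Pax7 there, and Pax3 itself was lower in Em4 than in Em3. Markers of Schwann cells and the neural crest, which can also express Pax3, were scarce: Sox10 stood between 0.0533 and 0.269 RPKM over the 5 libraries, and Foxd3 was listed at 0 in WT Em4. The sum of the 5 Schwann and neural crest markers was 3.61 (Em3) and 5.55 RPKM (Em4) in Notch2 cKO, 2.31 RPKM in Notch1 cKO Em8, and 2.19 (Em2) and 3.45 RPKM (Em4) in WT, with Erbb3 the most abundant, and their part in the Pax3 level was not tested.

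Six4, a Six-family factor of limb muscle precursors, differed between the knockouts by about as much as Pax7, in the opposite direction. Six4 (ENSMUSG00000034460.9, minus strand of GRCm38 chromosome 12, bases 73099609 to 73113456) reached 5.10 RPKM in Notch2 cKO Em3, 4.92 in Notch2 cKO Em4, 2.21 in Notch1 cKO Em8, then 2.60 in WT Em2 and 3.71 RPKM in WT Em4. Both Notch2 cKO libraries lay above both WT libraries, and Notch1 cKO Em8 lay below all 4. Its log2 fold change was 0.54 in Notch2 cKO against WT (SE 0.32, interval −0.09 to 1.18, limma adjusted p = 0.716) and −0.36 in Notch1 cKO against WT (SE 0.39, adjusted p = 1). Between the knockouts it was 0.91 (SE 0.39, interval 0.13 to 1.69, unadjusted p = 0.0233, limma adjusted p = 0.495), and it lay between 0.80 and 1.18 over 12 alternative settings, none of which called it. Notch2 cKO Em3 and Notch1 cKO Em8 share a run of digits in their column names. Between this pair, a single library on each side, Six4 was 0.93 higher in Notch2 cKO Em3 on the log2(RPKM + 1) scale. For the same difference the median of all genes tested was 0.13, and the value of Pax7 was −0.3.

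Six2 (ENSMUSG00000024134.11, minus strand of GRCm38 chromosome 17, bases 85684277 to 85688274), which is also known from kidney progenitors and connective tissue, reached 7.34 RPKM in Notch2 cKO Em3, 10.24 in Notch2 cKO Em4, 8.15 in Notch1 cKO Em8, then 9.33 in WT Em2 and 14.82 RPKM in WT Em4. The Notch2 cKO and WT libraries overlapped, and WT Em4 was the highest. The log2 fold change was −0.40 in Notch2 cKO (SE 0.31, limma adjusted p = 0.797) and −0.48 in Notch1 cKO (SE 0.38, adjusted p = 1) against WT. Without WT Em4 these were −0.09 and −0.17, and without WT Em2 they were −0.71 and −0.79. Interstitial fibroblast markers, summed over 10 genes, stood at 206 (Em3) and 327 RPKM (Em4) in Notch2 cKO, 327 RPKM in Notch1 cKO Em8, and 124 (Em2) and 206 RPKM (Em4) in WT. Their part in the Six2 level was not tested.

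Six5 (ENSMUSG00000040841.5, plus strand of GRCm38 chromosome 7, bases 19094594 to 19098549) reached 1.23 RPKM in Notch2 cKO Em3, 1.36 in Notch2 cKO Em4, 1.92 in Notch1 cKO Em8, then 1.09 in WT Em2 and 1.53 RPKM in WT Em4. Both Notch2 cKO values lay inside the WT range, and Notch1 cKO Em8 was the highest of the 5 on 140 reads. Its log2 fold change was 0.00 in Notch2 cKO against WT (SE 0.30, interval −0.60 to 0.59), with a sign that turned in 5 of 13 alternative settings, and 0.34 in Notch1 cKO against WT (SE 0.37, adjusted p = 1).

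Promoter sequence from RefSeq (GRCm38.p6, windows around a gene's start) matched 5 of the 9 genes, Pax7, Six2, Six4, Six5 and Eya4, with 7 windows. They were searched on both strands for letters that the factors of these families, Notch and myogenic factors are known to bind. The RBPJ core GTGGGAA, where the DNA partner of Notch binds, was in none of the 7 windows and in 6.38% of 32851 promoters, and the E-box CAGCTG, a site of myogenic factors, in none of the 7 and in 16.3% of promoters. The MEF3 core TCAGGTT, bound by Six-family factors, was in 4.07% of promoters and in 1 of the 7 windows, that of Six4, on the opposite strand and inside an annotated exon. Homeodomain half-sites TAAT and ATTA spaced by 3 bases were in 0.49% of promoters and in 1 window, that of Six2, while the spacing of 2 bases that Pax homeodomains prefer was in 0.39% of promoters and none of the 7. A match is a description of the letters, not of binding. The 2 matches are shown 5′ to 3′ on the gene's strand, with the matching letters in capitals: for Six4 the 30 bases at chr12:73113324-73113353 around the reverse complement of the MEF3 core, and for Six2 the 230 bases before its annotated exons, chr17:85688275-85688504, both on the minus strand.
Six4: ggcctgggggaAACCTGAtcggccagatcc
Six2: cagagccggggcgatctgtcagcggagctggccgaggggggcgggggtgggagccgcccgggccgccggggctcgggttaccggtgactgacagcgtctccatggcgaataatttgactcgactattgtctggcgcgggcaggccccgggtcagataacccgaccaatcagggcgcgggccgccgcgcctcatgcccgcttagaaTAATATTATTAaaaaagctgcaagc

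**Figure D3:**
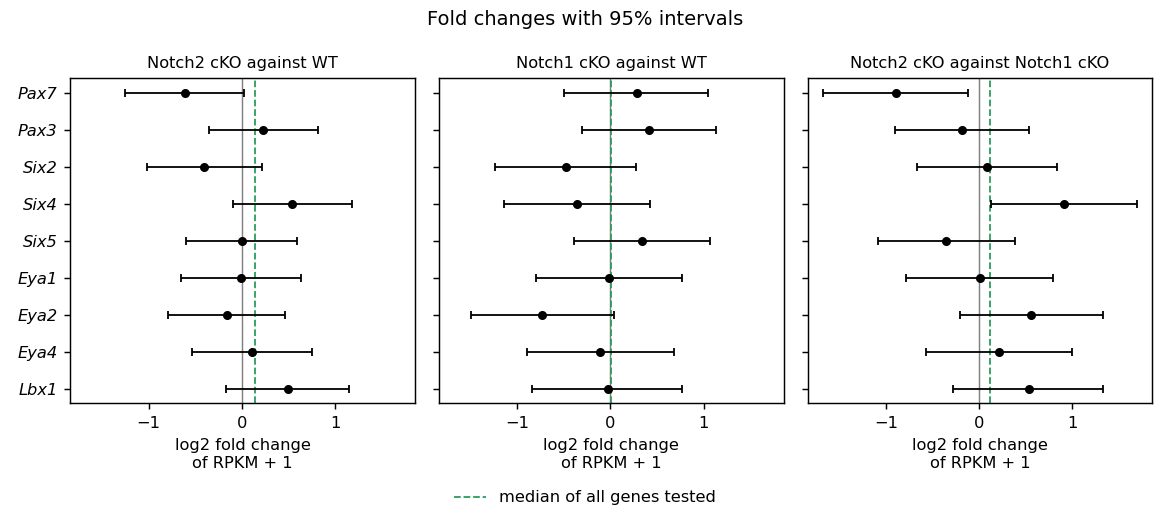
Log2 fold change of RPKM + 1 for the 9 genes (points) with 95% intervals from the limma fit (bars), in Notch2 cKO against WT, Notch1 cKO against WT and Notch2 cKO against Notch1 cKO. The dashed line is the median of the 11543 genes tested (0.14, 0.01 and 0.12); the intervals of Pax7 (−1.67 to −0.12) and Six4 (0.13 to 1.69) leave out 0 in the last comparison only, before adjustment.

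Among the co-activators, Eya2 varied most. Eya2 (ENSMUSG00000017897.18, plus strand of GRCm38 chromosome 2, bases 165595032 to 165771727) reached 7.20 RPKM in Notch2 cKO Em3, 11.11 in Notch2 cKO Em4, 5.75 in Notch1 cKO Em8, then 8.58 in WT Em2 and 12.03 RPKM in WT Em4. Notch1 cKO Em8 was the lowest of the 5 libraries, and the Notch2 cKO and WT libraries overlapped. The log2 fold change was −0.73 in Notch1 cKO against WT (SE 0.39, interval −1.49 to 0.04, unadjusted p = 0.0616, limma adjusted p = 1) and −0.16 in Notch2 cKO against WT (SE 0.31, adjusted p = 0.922). Over 13 alternative settings the Notch1 cKO value lay between −0.95 and −0.51.

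Eya1 (ENSMUSG00000025932.14, minus strand of GRCm38 chromosome 1, bases 14168954 to 14310235) was the steadiest of the 9. It reached 5.32 RPKM in Notch2 cKO Em3, 4.78 in Notch2 cKO Em4, 5.02 in Notch1 cKO Em8, then 4.54 in WT Em2 and 5.68 RPKM in WT Em4, so the WT pair spanned the knockout libraries. Its log2 fold changes were −0.01 in Notch2 cKO against WT (interval −0.65 to 0.63), −0.02 in Notch1 cKO against WT (interval −0.80 to 0.77) and 0.01 between the knockouts (interval −0.78 to 0.79). These intervals still hold changes of up to 0.80 in either direction on the log2 scale, and the sign of each turned under some settings.

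Eya4 (ENSMUSG00000010461.15, minus strand of GRCm38 chromosome 10, bases 23102963 to 23350786) reached 6.15 RPKM in Notch2 cKO Em3, 6.27 in Notch2 cKO Em4, 5.22 in Notch1 cKO Em8, then 4.50 in WT Em2 and 7.16 RPKM in WT Em4. As for Eya1, all knockout libraries lay between the WT libraries. The log2 fold change was 0.11 in Notch2 cKO (SE 0.32, limma adjusted p = 0.958) and −0.11 in Notch1 cKO (SE 0.39, adjusted p = 1) against WT, and the first changed sign under median-of-ratios scaling, quantile normalization and removal of the length trend. Eya3, the remaining member of the family, stood at 4.73 (Em3) and 3.58 RPKM (Em4) in Notch2 cKO, 3.56 RPKM in Notch1 cKO Em8, and 3.23 (Em2) and 4.83 RPKM (Em4) in WT.

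The summed level of the 4 Eya genes was 23.40 (Em3) and 25.75 RPKM (Em4) in Notch2 cKO, 19.55 RPKM in Notch1 cKO Em8, and 20.85 (Em2) and 29.70 RPKM (Em4) in WT. Eya2 made up 30.8% (Em3) and 43.1% (Em4) of it in Notch2 cKO, 29.4% in Notch1 cKO Em8, and 41.1% (Em2) and 40.5% (Em4) in WT. For Six2, Six4 and Six5 together the sum was 13.67 (Em3) and 16.52 RPKM (Em4) in Notch2 cKO, 12.28 RPKM in Notch1 cKO Em8, and 13.02 (Em2) and 20.06 RPKM (Em4) in WT. Six4 made up 37.3% (Em3) and 29.8% (Em4) of it in Notch2 cKO, 18% in Notch1 cKO Em8, and 20.0% (Em2) and 18.5% (Em4) in WT. Notch1 cKO Em8 thus had the lowest sum of both gene groups, and the highest sum of Pax3 and Pax7, at 15.00 RPKM against 10.73 and 13.00 RPKM in WT, with 12.17 (Em3) and 5.28 RPKM (Em4) in Notch2 cKO. With 1 Notch1 cKO library these sums have no replicate check. Notch1 cKO Em8 was also the library with the lowest sum of the 8 differentiated muscle markers, 3940 RPKM against 5370 and 4760 RPKM in WT, with 6680 and 6730 RPKM in Notch2 cKO. It had the highest sum of erythroid markers, 1250 RPKM against 713 and 846 RPKM in WT, with 366 and 312 RPKM in Notch2 cKO, led by the globin gene Hba-a2. The part of either in the Pax, Six-family and Eya sums was not tested.

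**Figure D4:**
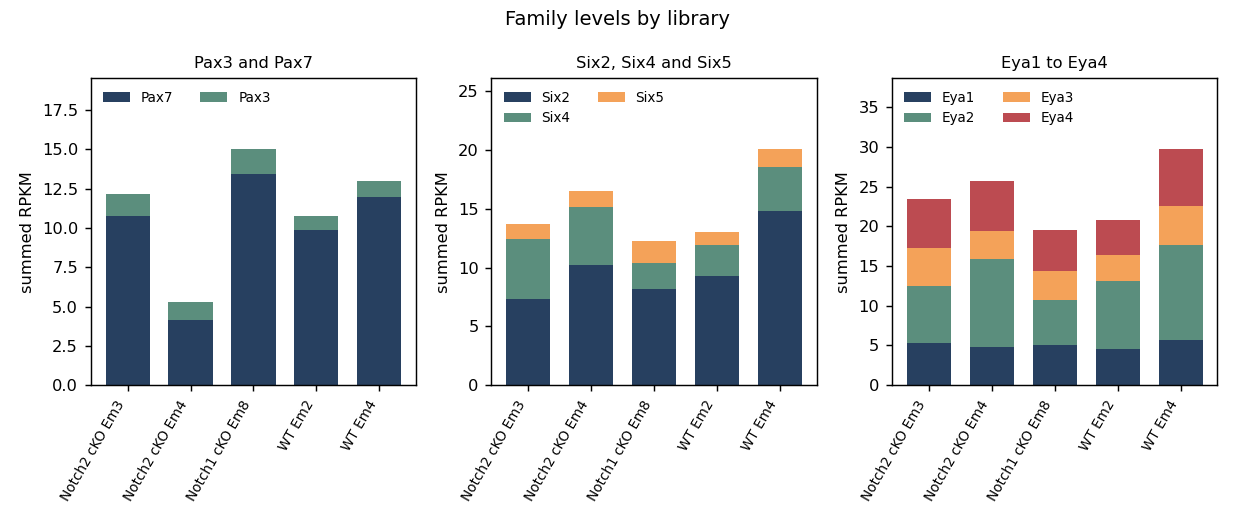
Summed RPKM (vertical axis, from 0) of Pax3 and Pax7, of Six2, Six4 and Six5, and of Eya1 to Eya4 in each library, stacked by gene. Notch1 cKO Em8 has the tallest Pax bar (15.00 RPKM) and the shortest Six-family (12.28 RPKM) and Eya (19.55 RPKM) bars, and Notch2 cKO Em4 the shortest Pax bar (5.28 RPKM).

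Lbx1 (ENSMUSG00000025216.9, minus strand of GRCm38 chromosome 19, bases 45232684 to 45235812) reached 4.97 RPKM in Notch2 cKO Em3, 8.27 in Notch2 cKO Em4, 4.17 in Notch1 cKO Em8, then 2.80 in WT Em2 and 6.38 RPKM in WT Em4. The WT libraries differed by 0.96 on the log2(RPKM + 1) scale, a wider gap than that of 97.9% of the genes tested, on 59 and 126 reads. Against WT, Notch2 cKO had a log2 fold change of 0.49 (SE 0.33, interval −0.17 to 1.15, limma adjusted p = 0.754) and ranged from 0.01 (without WT Em2) to 0.97 (without WT Em4) over 14 alternatives, none of which called it. In Notch1 cKO against WT it was −0.03 (SE 0.41, adjusted p = 1), and without WT Em4 it was 0.445.

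Of the 9 genes, 5 (Six2, Six5, Eya2, Eya4 and Lbx1) were higher in the Em4 library of both groups with 2 libraries, as were 34.3% of the genes tested. Lbx1, Six2 and Eya2, chosen after their values were seen, were higher by 0.64, 0.43 and 0.56 in Notch2 cKO and by 0.96, 0.62 and 0.44 in WT on the log2(RPKM + 1) scale, where the median of all genes was −0.01 and 0.20. Both Em4 libraries carry the same digits in their column names, and no source used here says what they mean. Between these libraries alone, Notch2 cKO Em4 differed from WT Em4 by 0.33 for Lbx1, −0.49 for Six2 and −0.11 for Eya2, by −1.33 for Pax7 and by 0.33 for Six4.

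Read as a set, the 9 genes showed no common direction. In Notch2 cKO against WT, 4 had a log2 fold change above 0 and their median was 0.00, while 68.1% of all genes were above 0 and the median of all genes was 0.14. In Notch1 cKO against WT, 3 were above 0 with a median of −0.03, against 51.5% and 0.01 for all genes. In Notch2 cKO against Notch1 cKO, 6 were above 0 with a median of 0.08, against 61.8% and 0.12 for all genes. The comparisons share libraries and are not independent of each other. Scaling moved the whole distribution: in Notch2 cKO against WT the median of all genes was 0.00 with median-of-ratios scaling and 0.28 with libraries rescaled to the same sum, and that of the 9 genes was −0.09 and 0.13.

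Counts of libraries that did not overlap were also near the background. Pax3 and Six4 were higher in both Notch2 cKO libraries than in both WT libraries and none of the 9 was lower, where 28.3% of all genes were higher and 9.44% lower. Pax3 passed the filter only through its knockout libraries, so its place in these counts is not independent of the filter. Notch1 cKO Em8 lay above both WT libraries for Pax7, Pax3 and Six5 and below both for Six2, Six4 and Eya2, where 24.3% and 26.1% of all genes did. Both Notch2 cKO libraries lay above Notch1 cKO Em8 for Six4, Eya2, Eya4 and Lbx1, and below it for Pax7, Pax3 and Six5, where 47.7% and 25.2% of all genes did.

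The genes around these regulators gave a like picture, with no call in any list. Among partner genes of the Pax, Six-family, Eya and Dach groups, Eya3 did not pass in any comparison (limma adjusted p = 0.981, 1 and 0.949). Another 9 genes of these groups (Six3, Six6, Dach1, Dach2, Pax1, Pax2, Pax6, Pax8 and Pax9) were too scarce to be tested and had means between 0.00975 and 0.586 RPKM, with Dach1 the highest. Of 15 further factors and signals of limb muscle progenitors, 10 were tested and none passed in either direction in any comparison. In Notch2 cKO, Meox2, a homeobox gene of limb muscle, was at 2.81 and 1.83 RPKM, against 1.10 and 1.40 RPKM in WT (limma adjusted p = 0.709), and the E protein gene Tcf12 at 45.4 and 47.3 RPKM, against 29.2 and 41.2 RPKM in WT (adjusted p = 0.75). In Notch1 cKO Em8, Meox2 stood at 2.33 RPKM, Lmo4 at 27.2 RPKM and Gab1, an adaptor of the Met receptor, at 8.76 RPKM (limma adjusted p = 1 for each against WT). Between the knockouts, Lmo4 and Msc had limma adjusted p-values of 0.649 and 0.83.

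Among genes known to act downstream of Pax3 and Pax7, 10 of 11 were tested and none passed. Spry1, a feedback inhibitor of receptor tyrosine kinases, had the smallest p: it stood at 25.7 (Em3) and 42.3 RPKM (Em4) in Notch2 cKO, 16.3 RPKM in Notch1 cKO Em8, and 11.8 (Em2) and 22.4 RPKM (Em4) in WT (log2 fold change of Notch2 cKO over WT 0.97, SE 0.29, limma adjusted p = 0.126). Myf5, a direct Pax target, was at 32.5 (Em3) and 41.8 RPKM (Em4) in Notch2 cKO, below both WT libraries at 54.3 and 50.4 RPKM (adjusted p = 0.695), with 44.8 RPKM in Notch1 cKO Em8. Unlike Pax7, it was not lowest in Notch2 cKO Em4. Between the knockouts Spry1, Myod1 and the homeobox gene Dbx1 had the smallest p, with limma adjusted p-values of 0.32, 0.501 and 0.818, and in Notch1 cKO against WT Myod1, Id3 and Fgfr4, each with an adjusted p of 1. The cadherin gene Cdh11 stood at 1.86 and 3.99 RPKM, against 1.35 and 1.81 RPKM in WT (adjusted p = 0.709).

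Among genes known downstream of Six-family and Eya proteins, 11 of 13 were tested and none passed. In Notch2 cKO against WT, 9 of the 11 lay above 0 on the log2 scale and their median fold change was 0.23, against 68.1% of all genes above 0 and a median of 0.14. In Notch1 cKO against WT, 5 of the 11 lay above 0 with a median of −0.01, against 51.5% of all genes. The fast troponin gene Tnnt3 stood at 87.2 (Em3) and 102 RPKM (Em4) in Notch2 cKO, 71.1 RPKM in Notch1 cKO Em8, and 52.9 (Em2) and 58.7 RPKM (Em4) in WT (limma adjusted p = 0.309 for Notch2 cKO against WT). Myog stood at 1660 (Em3) and 1740 RPKM (Em4) in Notch2 cKO, 944 RPKM in Notch1 cKO Em8, and 1050 (Em2) and 1270 RPKM (Em4) in WT (adjusted p = 0.734), the same order of groups as Six4. Slc12a2, an ion cotransporter gene, stood at 7.40 and 7.73 RPKM against 3.46 and 7.23 RPKM in WT (adjusted p = 0.747). Myod1 had its lowest level, 109 RPKM, in Notch1 cKO Em8, with 180 (Em3) and 188 RPKM (Em4) in Notch2 cKO, and 135 (Em2) and 167 RPKM (Em4) in WT (adjusted p = 0.501 between the knockouts). In Notch1 cKO against WT those of smallest p were Ckm, Tnni2 and Myod1, each with an adjusted p of 1.

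A list of genes taken as Notch targets, of which 7 of 10 were tested, had no call either. Hes1, a direct target, stood at 162 (Em3) and 143 RPKM (Em4) in Notch2 cKO, 96.1 RPKM in Notch1 cKO Em8, and 271 (Em2) and 194 RPKM (Em4) in WT. Its log2 fold change against WT was −0.59 in Notch2 cKO and −1.25 in Notch1 cKO (limma adjusted p = 0.582 and 0.16). Pax7 had its highest value in the library with the lowest Hes1. Its lowest value, 4.15 RPKM, was in Notch2 cKO Em4, the library with the next-lowest Hes1, so the 2 genes followed no common order. In Notch1 cKO against WT, Hey1, Hes6 and Notch3 followed Hes1 by p. In Notch2 cKO, Hey1 stood at 18.6 (Em3) and 30.7 RPKM (Em4), with a log2 fold change against WT of −0.1. In Notch1 cKO Em8, Hey1 stood at 13.7 RPKM against 24.4 and 27.1 RPKM in WT (log2 fold change −0.86, limma adjusted p = 1). Hes6 stood at 115 RPKM against 141 and 164 RPKM in WT (log2 fold change −0.41, adjusted p = 1). Whether Hes6 responds to Notch was not tested, so its level is not read as Notch output. Notch3, listed as a target, stood at 11 RPKM against 5.74 and 11 RPKM in WT (log2 fold change 0.42, adjusted p = 1). All 4 myogenic regulatory factors (Myf5, Myod1, Myog and Myf6) were tested and none passed.

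By root mean square distance between profiles of log2(RPKM + 1) over the 5 libraries, each centred on its own mean, the genes most like Pax7 among 11542 others were 9430002A10Rik (0.0994), Cbarp (0.123) and Zbtb12 (0.125). All had their lowest level in Notch2 cKO Em4, at 0.37, 0.937 and 0.813 RPKM. Those most like Pax3 were Gm15706 (0.0328), Card10 (0.0396) and Fgf18 (0.0416), each highest in Notch1 cKO Em8 and lowest in WT Em2. With 5 libraries such likeness is a description of these libraries.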

How the data were processed

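The authors deposited RPKM values for 27179 rows and 5 libraries in 1 table, per the file headers and 1306 unnamed rows were dropped. Demultiplexing software bcl2fastq 2.20.0 and build mm10 appear in the submitters' processing notes. Aligner, counting tool, strand setting and annotation: not given in the sources used here. Libraries came from a low-input SMART-Seq kit, per the labels' protocols. Column names give the group but no replicate number.

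Library totals, whole reads and gene lengths were recovered from the RPKM steps: all 14489 genes searched gave whole reads within a tolerance of 0.02. Intervals cover counting error only, since the reads carry no molecular identifiers.

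Genes averaging 1 RPKM or more entered a limma 3.58.1 fit (R 4.3.3, trended eBayes) of log2(RPKM + 1) on group, over all 5 libraries. It is a two-sided test, and its fold changes understate those of low genes. There were 2 residual and 103.8 prior degrees of freedom; the spread of Notch1 cKO, with its single library, was taken from the other groups. With 2 libraries on each side, the smallest exact permutation p is 0.333. All 9 genes passed the filter, Pax3 only through the knockout libraries, as its WT mean was 0.939 RPKM. The script was tested on simulated reads. Members, lists and tests were chosen with earlier results of these data known. The genes named are the 9, the targeted genes, the partner genes, the 3 of smallest p in a list without calls, and the 3 nearest profiles for Pax7 and Pax3; others were chosen after their values were seen. Some genes these rules name are not reported here. Symbols were matched to GENCODE M21 (GRCm38) for positions, and promoters from RefSeq (GRCm38.p6). Exons of the 9 genes overlapped no exon of another annotated gene. Alternatives were other pseudocounts, filters and scalings, removal of the length trend, limma voom on the recovered reads, and leaving out each library.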

Additional observations from a re-analysis of the deposited data

How the results depend on the processing

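None of the 9 genes was called in any of the 14 alternatives for Notch2 cKO against WT or the 13 for each other comparison. With a mean of at least 5 RPKM, 6 of them were tested, as Pax3, Six4 and Six5 fell below that filter. Of the recomputed fold changes of the 9 genes, 108 of 123 kept their sign in Notch2 cKO against WT, 111 of 114 in Notch1 cKO against WT and 106 of 114 between the knockouts. No paired analysis was possible because the labels' replicate numbers could not be tied to columns, and a fit with the digits in the column names as a term leaves no residual degrees of freedom.

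Signs turned only for fold changes whose interval holds 0, and the cause was not tested. In Notch2 cKO against WT these were Eya1 with libraries rescaled to the same sum (0.133), Eya4 with median-of-ratios scaling (−0.032), quantile normalization (−0.089) and the length trend removed (−0.132), Pax3 with the length trend removed (−0.016), and Six5 with a pseudocount of 0.1 (0.001), rescaled sums (0.089) and voom (0.011). In Notch2 cKO against Notch1 cKO, median-of-ratios scaling, quantile normalization and the length trend removed gave −0.098, −0.113 and −0.177 for Eya1 and −0.030, −0.085 and −0.148 for Six2. Leaving out 1 library at a time, the Notch2 cKO against WT values ran from −0.144 to 0.124 for Eya1, −0.446 to 0.116 for Eya2, −0.179 to 0.392 for Eya4 and −0.142 to 0.135 for Six5. In Notch1 cKO against WT they ran from −0.151 to 0.118 for Eya1, −0.391 to 0.179 for Eya4 and −0.514 to 0.445 for Lbx1, each turning without WT Em4. Between the knockouts they ran from −0.058 to 0.070 for Eya1 and −0.134 to 0.296 for Six2.

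Over all genes, Notch2 cKO against WT called 62 (41 higher, 21 lower), against 33 with a mean of at least 5 RPKM, 26 (14 and 12) with median-of-ratios scaling, 28 (26 and 2) with rescaled sums, 4 (3 and 1) with quantile normalization, 2 with the length trend removed and 13 to 278 leaving out 1 library (13 without WT Em2, of which 7 higher and 6 lower, 278 without WT Em4, of which 46 higher and 232 lower). Notch1 cKO against WT called 8, against 15 with a pseudocount of 0.1, 3 with rescaled sums, 1 with quantile normalization (1 and 0, where it was 5 and 3), 3 with voom and 1 to 6 leaving out 1 library. Notch2 cKO against Notch1 cKO called 56 (32 and 24), against 32 (14 and 18) with median-of-ratios scaling, 27 (20 and 7) with rescaled sums, 13 (5 and 8) with quantile normalization and 13 with voom. Counts of 0 came from limma with no filter in the 3 comparisons (1050, 301 and 983 genes at an unadjusted p under 0.05), from voom in Notch2 cKO against WT (807), and with the length trend removed in Notch1 cKO against WT (291) and between the knockouts (915).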
